A study of Mus musculus with 9 samples.

Results

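The insulin-like growth factor (IGF) binding proteins, the CCN matricellular proteins and the IGF receptors were represented by 7 genes, Igfbp3, Igfbp4, Igfbp7, Ccn1, Ccn2, Igf1r and Igf2r, among the 22180 genes measured. They were chosen by name, with earlier results of these arrays known, and each was read from its probe set with the highest mean over all arrays. Their differences are therefore a description, and the p-values given beside them are no independent evidence. Polarised mouse T helper 17 (Th17) cultures of 3 genotypes were hybridised to whole-transcript expression arrays, with 3 arrays per genotype and 9 in all. The WT group carried no named mutation. The SRG3 cKO group is labelled as a conditional knockout of SRG3, the Swi/Snf chromatin remodelling subunit encoded by Smarcc1. The RORγt KO group is labelled as a knockout of RORγt, the nuclear receptor that directs Th17 differentiation. The labels give neither the driver of a recombinase for the SRG3 cKO nor the age of the mice. All groups started from splenic CD4+CD25- T cells sorted as CD44 low and CD62L high, and had the same culture. Plates were coated with anti-CD3 and anti-CD28 at 10 µg/ml each. The medium held TGF-β1 at 1 ng/ml, IL-6 at 30 µg/ml (the unit as the labels write it) and anti-IL-4 and anti-IFN-γ at 2 µg/ml each, and cultures ran for 60 h. The design asks how targeting a remodeller subunit and targeting the lineage factor each alter expression in these cultures. The arrays are called biological replicates without a statement on separate mice, so each p-value reflects only how much these arrays vary.

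IGF1 and IGF2 act through the receptor tyrosine kinase encoded by Igf1r, and secreted IGF binding proteins hold the ligands in solution and set how much reaches that receptor. Igf2r encodes the cation-independent mannose 6-phosphate receptor, which takes up and degrades IGF2 and carries newly made lysosomal enzymes from the Golgi to endosomes. It is an imprinted gene in the mouse, silenced on the paternal copy by the antisense transcript Airn. CCN proteins are secreted into the matrix, bind integrins and heparan sulfate, and are textbook targets of YAP with TEAD factors, serum response factor and TGF-β signalling. They are best known from fibroblasts and endothelium.

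Values are log2 intensities, on which 1 unit is a doubling, and levels of different probe sets are not comparable with each other. The medians of the 9 arrays lay between 7.12 and 7.14, and the middle 50% of all values lay between 6.12 and 8.23. Smarcc1 read 10.1, 10.3 and 10.4 in WT, 8.47, 8.79 and 8.62 in SRG3 cKO and 10.1, 10.0 and 10.2 in RORγt KO, so the SRG3 cKO arrays stood below all others. The intensity in SRG3 cKO was 3.15-fold lower than in WT, and how much SRG3 protein remained was not measured on these arrays. On the first principal component of all genes, which held 28.8% of the variance, the array of each genotype farthest from the others of its group was picked. This rule returns 1 array per genotype whatever the data, and these arrays are called standing apart below. They were WT 1 at -1.38 against -10.5 and -11.8, SRG3 cKO 1 at 3.98 against -3.27 and -2.06, and RORγt KO 3 at 3.22 against 9.82 and 12.0. Averaged over all 9 arrays, all 9 measured T cell and Th17 markers lay above the median of all values, 7.13. Il17a averaged 10.7 in WT, 8.50 in SRG3 cKO and 6.83 in RORγt KO, the last below that median. By the same measure 6 of 14 stromal and endothelial, 1 of 9 myeloid, 4 of 5 B cell and 4 of 6 CD8, NK and γδ T cell markers also lay above it. None of the markers of these 4 lists passed the limma test in any comparison. Only 0.523% to 1.28% of all genes did, so nothing is read from that. An unadjusted p under 0.05 was reached by 1, 2 and 3 of the stromal and endothelial markers and by 0, 3 and 3 of the myeloid ones (SRG3 cKO and RORγt KO against WT, then between the mutants), by 0 B cell markers, and by 1 CD8, NK and γδ T cell marker in SRG3 cKO against WT alone. The share of all genes with such a p is not given here, so nothing is read from these counts or from those of the lists below. For scale, Ccn1 in RORγt KO against WT, at an unadjusted limma p of 0.0607, ranked 3209 of 22180 genes. The summed stromal and endothelial level ran from 96.8 to 97.5 in WT, 96.9 to 97.4 in SRG3 cKO and 97.5 to 98.4 in RORγt KO. In bulk RNA, fewer cells that make a transcript and less of it per cell cannot be told apart.

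Promoter sequences are shown for the 4 genes whose levels separated genotypes, Ccn1, Igf2r, Igfbp7 and Igfbp4, so that their letters can be compared. RefSeq windows of build GRCm38.p6 were matched by symbol for 6 of the 7 genes, all but Ccn2. Each window runs from 250 bases before the annotated start to 50 after it, and the 250 bases before the start are printed 5′ to 3′ on the strand of the gene. Capitals mark matches, on either strand, to 6 motifs: the TEAD core CATTCC, the AP-1 motif TGANTCA, the SMAD box CAGAC, the ROR core AGGTCA, the E-box CACGTG and the SP1 GC box GGGCGG. The Ccn1 stretch is chr3:145649986-145650235, minus strand. The Igf2r stretch is chr17:12769707-12769956, minus strand. That of Igfbp7 is chr5:77408046-77408295, minus strand, and that of Igfbp4 is chr11:99040994-99041243, plus strand.
Ccn1: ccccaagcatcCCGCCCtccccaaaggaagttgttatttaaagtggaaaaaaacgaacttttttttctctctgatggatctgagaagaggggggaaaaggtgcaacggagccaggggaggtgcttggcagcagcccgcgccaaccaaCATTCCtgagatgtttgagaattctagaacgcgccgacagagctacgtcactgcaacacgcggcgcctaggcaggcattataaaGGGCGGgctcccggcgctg
Igf2r: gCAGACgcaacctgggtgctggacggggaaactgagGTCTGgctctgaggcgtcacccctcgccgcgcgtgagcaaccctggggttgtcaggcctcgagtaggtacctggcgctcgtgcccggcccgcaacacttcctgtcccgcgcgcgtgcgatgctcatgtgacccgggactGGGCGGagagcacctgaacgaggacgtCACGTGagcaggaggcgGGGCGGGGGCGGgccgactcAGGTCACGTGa
Igfbp7: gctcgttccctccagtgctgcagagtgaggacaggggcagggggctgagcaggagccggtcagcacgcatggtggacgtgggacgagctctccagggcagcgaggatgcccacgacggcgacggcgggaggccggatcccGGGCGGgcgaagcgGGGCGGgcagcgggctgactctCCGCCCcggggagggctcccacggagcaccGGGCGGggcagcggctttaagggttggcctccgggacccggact
Igfbp4: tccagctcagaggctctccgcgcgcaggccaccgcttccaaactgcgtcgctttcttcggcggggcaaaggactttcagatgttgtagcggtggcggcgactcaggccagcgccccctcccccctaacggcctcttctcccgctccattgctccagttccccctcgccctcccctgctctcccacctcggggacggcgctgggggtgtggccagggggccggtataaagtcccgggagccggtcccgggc

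Counting the first base after the 250 as position 0, the Ccn1 window held a TEAD core at -103 to -98, which 14.7% of all 32851 windows of this length also hold. It further held GC boxes at -239 to -234, on the reverse strand, and at -19 to -14, and a SMAD box at 3 to 7. The Igf2r window held no TEAD core. It carried E-boxes at -48 to -43 and at -7 to -2, the second of which overlaps a ROR core at -11 to -6, and GC boxes at -75 to -70, -31 to -26 and -25 to -20, the last 2 adjoining. It also held SMAD boxes at -249 to -245 and, on the reverse strand, at -214 to -210. Igfbp7 had 4 GC boxes and no other match, and Igfbp4 and Igfbp3 had no match to any of the 6. Igf1r had 1 SMAD box, 1 ROR core on the reverse strand and 2 GC boxes. Ccn1 and Igf2r, whose levels followed each other across the arrays, thus shared the GC box and the SMAD box, and both are frequent: 35.7% of all windows hold the first and 49.6% the second. The ROR core stands in 16.3% of windows, the E-box in 7.15% and the AP-1 motif, which no window of these genes held, in 7.81%. The Ccn1 window was 57% G and C, and those of Igf2r, Igfbp7, Igfbp4, Igfbp3 and Igf1r were 70.7%, 73.3%, 71.3%, 71.7% and 76%, against a median of 52.7% over all windows. A match describes letters only, and its absence says only that these letters are not in this window.

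**Figure D1:**
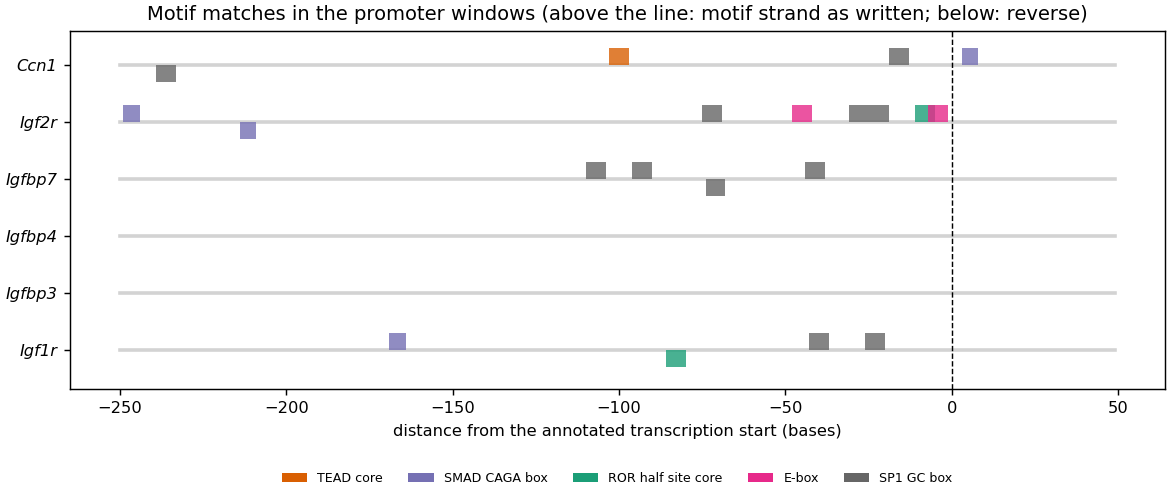
Positions of motif matches in the promoter windows of 6 genes, by distance in bases from the annotated start (dashed line); coloured boxes above a grey line lie on the strand of the gene as the motif is written, and those below it on the reverse strand. The TEAD core appears in Ccn1 alone of the 6, Igf2r has the most matches, and Igfbp4 and Igfbp3 have none.

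Of the 7 genes, 3 passed the test in SRG3 cKO against WT (limma over all genes, Benjamini-Hochberg adjusted p under 0.05), all lower in SRG3 cKO: Ccn1, Igfbp7 and Igf2r. In RORγt KO against WT 2 passed, Igfbp7 lower and Igfbp4 higher. In RORγt KO against SRG3 cKO 2 passed, Ccn1 and Igf2r, both higher in RORγt KO. The shares of all genes that passed were 0.523% (116 genes), 1.04% (230 genes) and 1.28% (283 genes). Since the genes were listed with these comparisons in view, nothing is read from their counts against those shares. Values of both groups did not overlap for 4, 3 and 3 of the 7 genes, where 13.6%, 14.3% and 14.6% of all genes had groups that did not overlap. The median difference of the 7 genes was -0.07, -0.02 and 0.10 in the same order, against -0.01, 0.00 and 0.00 over all genes. Both comparisons with WT use the same WT arrays. With the replicate number as a block, 195 genes passed in SRG3 cKO against WT, and the same 3 of the 7 were among them. The labels state no such pairing. Without the 3 arrays that stood apart, a choice made after seeing the data, 1, 464 and 39 genes passed in the 3 comparisons, and 0, 2 and 0 of the 7 genes did.

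**Figure D2:**
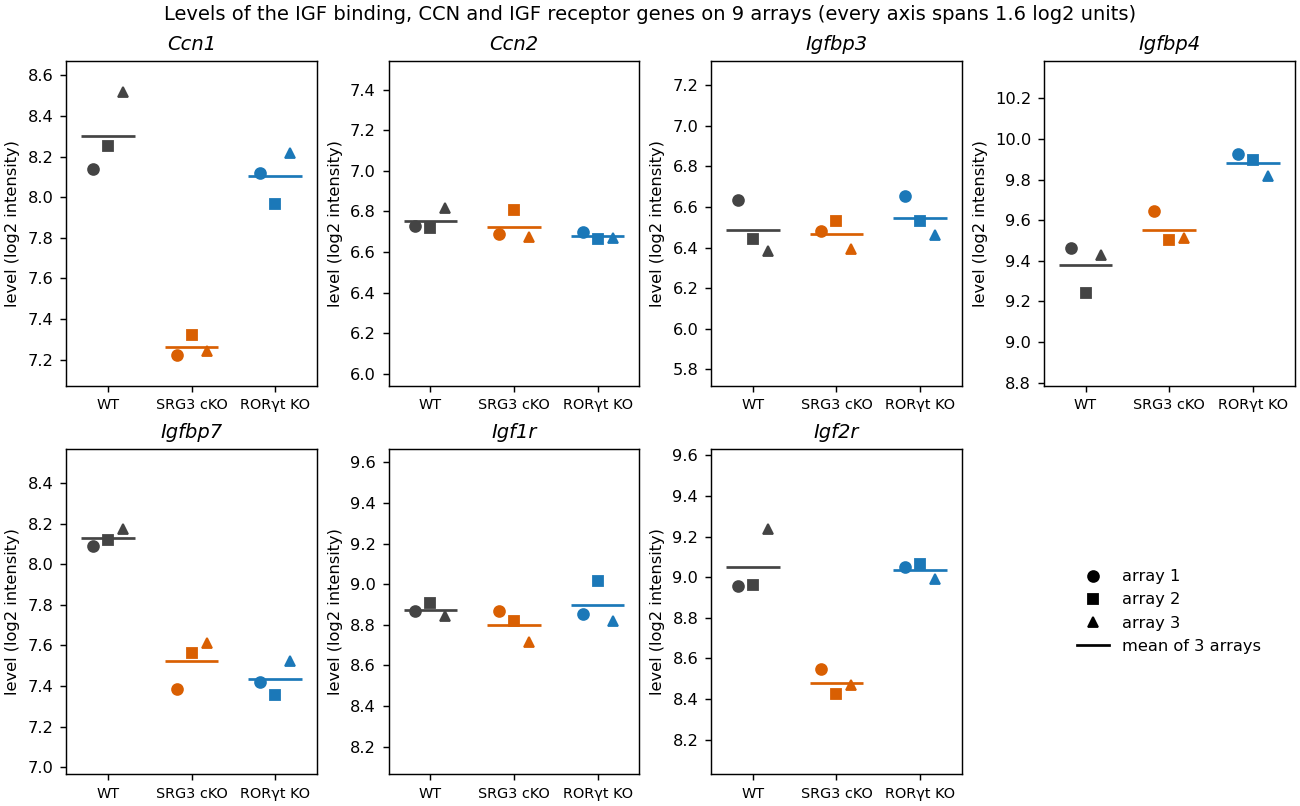
Level of each of the 7 genes (log2 intensity) on the 9 arrays, by genotype; symbols give the array number, lines the mean of 3 arrays, and every axis spans the same number of log2 units. SRG3 cKO stands alone and low for Ccn1 (7.22 to 7.32) and Igf2r (8.43 to 8.55), WT stands alone and high for Igfbp7, and RORγt KO stands highest for Igfbp4.

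Igfbp7 encodes a secreted binding protein with low affinity for IGFs that is also found in basement membranes. Its level was 8.09, 8.12 and 8.18 on the 3 WT arrays, 7.39, 7.56 and 7.61 on the SRG3 cKO arrays and 7.42, 7.36 and 7.52 on the RORγt KO arrays. Every WT array lay above every mutant array, and both mutant groups overlapped. Igfbp7 fell by 0.61 (SE 0.06, n = 3 per group) in SRG3 cKO, a 1.52-fold lower intensity with a limma adjusted p of 0.00578. It fell by 0.70 (SE 0.06, n = 3 per group) in RORγt KO, 1.62-fold, with a limma adjusted p of 0.00135. The order was WT, then SRG3 cKO and RORγt KO, and the latter pair did not differ beyond their spread: the difference was -0.09, with a 95% interval of -0.23 to 0.06. Igfbp7 passed against WT in both mutants whichever array was left out. In SRG3 cKO against WT it missed the threshold with only the 6 arrays of those groups (adjusted p 0.0513) and without the 3 arrays that stood apart, where it fell by 0.56 (adjusted p 0.0933).

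Igfbp4, whose product binds both IGFs and is cut by the protease pappalysin, moved the other way. Levels were 9.46, 9.24 and 9.43 in WT, 9.65, 9.50 and 9.51 in SRG3 cKO and 9.93, 9.89 and 9.82 in RORγt KO. The 3 genotypes formed 3 steps with no overlap, WT lowest and RORγt KO highest. The top step against WT was 0.50 (SE 0.07, n = 3 per group), 1.42-fold, with a limma adjusted p of 0.0123. The step from WT to SRG3 cKO was 0.18, with a 95% interval of 0.03 to 0.32 and a limma adjusted p of 0.371, and that from SRG3 cKO to RORγt KO was 0.33, with a 95% interval of 0.18 to 0.48 and a limma adjusted p of 0.0502. The last value lay at the threshold and passed in 7 of 19 alternatives, for example at 0.0280 with the replicate block. The call in RORγt KO against WT was lost without RORγt KO 1 (adjusted p 0.0608), without RORγt KO 2 (0.0590) and with the 6 arrays of those groups alone (0.0619), at differences of 0.48, 0.50 and 0.50. Igfbp4 and Igfbp7 ran opposite to each other over the 9 arrays, with a Pearson correlation of -0.81 that carries the genotype groups in it.

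Naive T cell markers followed Igfbp4 in part. The summed level of the 6 measured markers was 54.6 to 55.3 in WT, 56.1 to 56.4 in SRG3 cKO and 56.4 to 57.6 in RORγt KO, so that both mutants lay above WT and overlapped each other. Without Il7r the sums of the other 5 were 45.2 to 45.8, 46.9 to 47.2 and 46.2 to 47.2, with no step from SRG3 cKO to RORγt KO. In RORγt KO against WT 2 of the 6 rose: Il7r, the IL-7 receptor, by 0.95 (adjusted p 0.00135), and Ccr7, the lymph node homing receptor, by 0.66 (adjusted p 0.04999, just under the threshold). The Ccr7 call was lost without any single array but WT 1, at adjusted p from 0.0599 to 0.218. In SRG3 cKO against WT none of the 6 passed the limma test, 5 had an unadjusted p under 0.05, and Il7r differed by -0.10. Between the mutants, where Igfbp4 differed by 0.33, Il7r was higher in RORγt KO by 1.05 (adjusted p 0.000679) and the list median was -0.06. Ccr7 and Klf2 were also higher there, by 0.22 and 0.05, whereas Lef1, S1pr1 and Dapl1 differed by -0.19, -0.17 and -0.24. None of these 5 passed the threshold. Lef1 differed by -0.04 in RORγt KO against WT. Ccr7 is also the second measured gene to one side of Igfbp4 on chromosome 11, and Tns4, which lies between them, differed by 0.28 (adjusted p 0.104). Top2a and Gjd3 on the other side differed by 0.00 and 0.01. The part of naive marker levels in the Igfbp4 difference was not tested.

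Igfbp3 encodes the main carrier of IGFs in serum. It read 6.63, 6.44 and 6.39 in WT, 6.48, 6.53 and 6.39 in SRG3 cKO and 6.65, 6.53 and 6.46 in RORγt KO, at percentile 33 of all probe sets. All 3 groups overlapped. Differences were -0.02 in SRG3 cKO and 0.06 in RORγt KO against WT, with 95% intervals of -0.18 to 0.15 and -0.10 to 0.23. The first changed sign without WT 1 (0.05) or SRG3 cKO 3 (0.02).

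Ccn1, also named Cyr61, encodes an integrin-binding matrix protein and had the largest difference of the 7 genes in SRG3 cKO. Its level was 8.14, 8.25 and 8.52 in WT, 7.22, 7.32 and 7.24 in SRG3 cKO and 8.12, 7.97 and 8.22 in RORγt KO. All 3 SRG3 cKO arrays lay far below the other 6, while WT and RORγt KO overlapped. Ccn1 fell by 1.04 (SE 0.09, n = 3 per group) in SRG3 cKO against WT, 2.06-fold, with a 95% interval of -1.25 to -0.83 and a limma adjusted p of 0.00259. Only 0.0225% of all genes had a larger absolute difference there. RORγt KO differed from WT by -0.20, with a 95% interval of -0.41 to 0.01 and a limma adjusted p of 0.420. The direct comparison, RORγt KO above SRG3 cKO by 0.84 (SE 0.09), tested the gap between both mutants, with a limma adjusted p of 0.00270. The order of levels was WT and RORγt KO, which did not differ beyond their spread, then SRG3 cKO. The Ccn1 calls held whichever single array was left out. Without the 3 arrays that stood apart Ccn1 fell by 1.10 (adjusted p 0.0933) against WT, and the direct difference was 0.76 (adjusted p 0.0723).

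Ccn2, also named Ctgf, encodes the connective tissue growth factor and is the closest relative of Ccn1 among the genes described. It read 6.73, 6.72 and 6.82 in WT, 6.69, 6.81 and 6.67 in SRG3 cKO and 6.70, 6.66 and 6.67 in RORγt KO. The RORγt KO arrays lay just below all WT arrays, by -0.08 on average (95% interval -0.18 to 0.03, limma adjusted p 0.552). SRG3 cKO overlapped WT at a difference of -0.03, with a 95% interval of -0.14 to 0.07, which does not reach the size of the Ccn1 fall. That difference was 0.00 without WT 3. A second Ccn2 probe set, with a mean of 6.53, gave -0.09 in SRG3 cKO and -0.08 in RORγt KO against WT and 0.01 between the mutants, none past the threshold. Both Ccn2 probe sets lay below the median probe set level, at percentiles 38.5 and 33.9.

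Igf2r read 8.96, 8.96 and 9.24 in WT, 8.55, 8.43 and 8.47 in SRG3 cKO and 9.05, 9.06 and 8.99 in RORγt KO. As for Ccn1, the 3 SRG3 cKO arrays were the lowest of the 9 and the other genotypes overlapped. Igf2r fell by 0.57 (SE 0.07, n = 3 per group) in SRG3 cKO against WT, 1.49-fold, with a limma adjusted p of 0.0143. RORγt KO differed from WT by -0.02, with a 95% interval of -0.18 to 0.15, and the sign turned without WT 3 (0.08) or RORγt KO 3 (0.01). RORγt KO stood above SRG3 cKO by 0.55 (SE 0.07), with a limma adjusted p of 0.00642. The fall against WT is less firm than that of Ccn1. It missed the threshold without SRG3 cKO 1 (adjusted p 0.0614), SRG3 cKO 2 (0.0612) or SRG3 cKO 3 (0.0798), with the 6 arrays of those groups alone (0.0955), without the 3 arrays that stood apart (0.151), and when p-values were adjusted over all probe sets rather than genes (0.0524). The fitted difference stayed between -0.65 and -0.48 throughout. The direct difference passed whichever array was left out and missed without the 3 arrays that stood apart, at 0.61 (adjusted p 0.0807).

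Igf1r, the signalling receptor, showed no such fall. It read 8.87, 8.91 and 8.85 in WT, 8.87, 8.82 and 8.71 in SRG3 cKO and 8.86, 9.02 and 8.82 in RORγt KO, and all groups overlapped. SRG3 cKO differed from WT by -0.07 (95% interval -0.21 to 0.06) and RORγt KO by 0.02 (95% interval -0.11 to 0.16), the latter turning to -0.04 without RORγt KO 2.

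**Figure D3:**
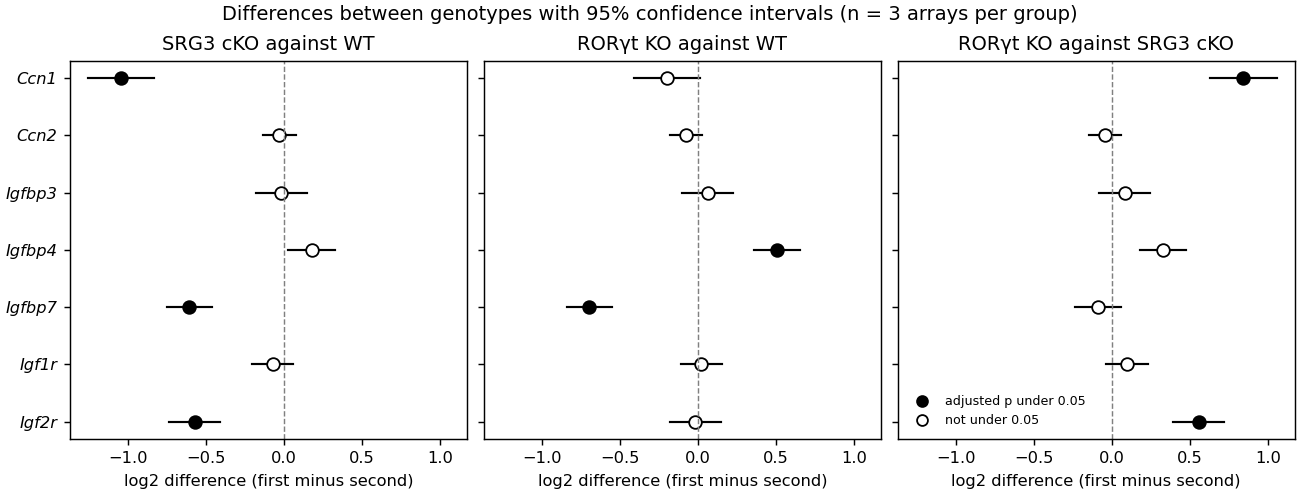
Log2 differences of the 7 genes between genotypes, first named minus second, with 95% confidence intervals from the limma fit; filled points have an adjusted p under 0.05. Ccn1 and Igf2r lie left of 0 in SRG3 cKO against WT and right of 0 in RORγt KO against SRG3 cKO, whereas Igfbp7 lies left of 0 in both comparisons with WT.

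Across the 9 arrays, the genes whose levels ran most like that of Ccn1 were Smarcc1 (Pearson r 0.98), Tbl1xr1 (0.98) and Slc25a13 (0.98). Smarcc1 is the gene targeted in the SRG3 cKO. For Igf2r they were Tnfsf11 (0.97), B930095G15Rik (0.96) and Ccn1 itself (0.95). Igfbp7 ran most like E130309D02Rik, Ppfibp1 and Hivep3 (0.97 each), and Igfbp4 most like Stk39 (0.98), Iqgap2 (0.98) and Add1 (0.97). Igfbp3 was most like A830009L08Rik (0.94), Prkd1 (0.94) and Vmn1r88 (0.93), Ccn2 most like Ky (0.95), Eloa (0.95) and Jpt1 (0.93), and Igf1r most like Dmap1 (0.96), Spo11 (0.95) and 1700030O20Rik (0.95). These coefficients are maxima over all genes and share the genotype groups and arrays, and they are given as a description over 9 points. Ccn1 and Ccn2 had a correlation of 0.17, and Igf1r and Igf2r 0.52.

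Of 15 further IGFBP and CCN family members and related genes measured, none passed the limma test in either comparison with WT. The shares of all genes that passed there were 0.523% and 1.04%. Of the 15, 2 and 1 had an unadjusted p under 0.05. The list median was 0.00 in SRG3 cKO and 0.03 in RORγt KO, against -0.01 and 0.00 for all genes. Ccn4, a Wnt-induced family member, was higher in RORγt KO than in SRG3 cKO by 0.39 (adjusted p 0.0462). Its levels were 6.63, 6.58 and 6.38 against 6.06, 6.10 and 6.28, and the call was lost with the replicate block (0.0721) and without any single array but SRG3 cKO 3 or RORγt KO 3 (0.0657 to 0.180). Igfbp1, the neighbour of Igfbp3 on chromosome 11, differed from WT by -0.19 in SRG3 cKO (adjusted p 0.283) and -0.10 in RORγt KO (0.554). Igfbp2, the other main binding protein of serum, differed by -0.01 and -0.06.

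None of the 25 measured genes for IGF and insulin ligands, receptor signalling and binding protein proteases passed the limma test in any of the 3 comparisons. Of all genes 0.523%, 1.04% and 1.28% did. An unadjusted p under 0.05 was reached by 2, 5 and 2 of the 25. List medians were 0.01, 0.01 and 0.02. The ligand genes showed little spread, Igf1 reading 7.39 to 7.53 and Igf2 7.37 to 7.48 over the 9 arrays. The Igf2 value was identical, at 7.41969, on WT 2, SRG3 cKO 2 and RORγt KO 1. Whether the small spread reflects steady expression or little signal was not tested. Irs2, an adaptor that couples the insulin and IGF1 receptors to PI3-kinase, gave the largest absolute difference of the list in RORγt KO against WT. It read 7.96, 7.50 and 7.73 in WT and 8.29, 8.16 and 8.04 in RORγt KO, a difference of 0.43 (adjusted p 0.104) that passed without WT 1 (0.55, adjusted p 0.0283) and without the 3 arrays that stood apart (0.61, adjusted p 0.0415). Foxo1, the transcription factor that this pathway holds out of the nucleus, differed by 0.21 in SRG3 cKO (adjusted p 0.221) and 0.29 in RORγt KO (adjusted p 0.0707). The latter passed with the replicate block (adjusted p 0.0449), with probe sets above the median level (0.0360), without WT 1 (0.0327) and without the 3 arrays that stood apart (0.0454), so its call depends on the setting.

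Genes listed with Igf2r, most for lysosomal sorting or for lying beside it on chromosome 17, included 20 measured. In SRG3 cKO against WT, Gnptab fell and Park7 rose, and none of the 20 passed the limma test in RORγt KO against WT, where 3 had an unadjusted p under 0.05. List medians were -0.05, -0.02 and 0.02. Gnptab encodes the phosphotransferase subunits that build the mannose 6-phosphate tag which Igf2r reads. Its level was 9.35, 9.37 and 9.36 in WT, 8.99, 9.10 and 9.08 in SRG3 cKO and 9.49, 9.56 and 9.60 in RORγt KO, 3 groups without overlap and with SRG3 cKO lowest. It fell by 0.30 in SRG3 cKO (adjusted p 0.0240), a call lost without any single one of the WT or SRG3 cKO arrays, at adjusted p from 0.0534 to 0.103. RORγt KO stood above WT by 0.19 (adjusted p 0.0807, and 0.0410 with probe sets above the median level). It stood above SRG3 cKO by 0.49 (adjusted p 0.000688), which passed in all 19 alternatives, and that gap holds both differences from WT. In that direct comparison Lamp2 and Ctsb, a lysosomal membrane protein and a cathepsin, were also higher, by 0.27 (adjusted p 0.0208) and 0.26 (adjusted p 0.0418). Against WT they differed in SRG3 cKO by -0.19 each (adjusted p 0.145 and 0.189). Lamp2 lost its direct call without RORγt KO 2, RORγt KO 3 or any SRG3 cKO array (0.0580 to 0.0874), and Ctsb without any array but WT 1 (0.0507 to 0.157). M6pr, the cation-dependent mannose 6-phosphate receptor, read 10.2 to 10.4 on all arrays and differed from WT by -0.03 in both mutants. Park7, the DJ-1 gene, lies outside sorting and is not among the nearest measured genes on either side of Igf2r. It rose by 0.23 (adjusted p 0.0443) in SRG3 cKO and lost that call with the replicate block (0.0570) and without any array but RORγt KO 2 (0.0722 to 0.154).

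Airn overlaps Igf2r on the opposite strand. It read 7.01, 7.03 and 7.42 in WT, 6.73, 7.02 and 6.95 in SRG3 cKO and 6.97, 7.20 and 7.19 in RORγt KO. The groups overlapped, with differences of -0.25 (adjusted p 0.473) and -0.03 from WT, and the second turned to 0.10 without WT 3 and 0.05 without RORγt KO 1. WT 3 had the highest Airn and the highest Igf2r level of all arrays. Slc22a2 and Mas1, to either side of the Igf2r and Airn pair, differed from WT by 0.03 or less in both mutants. Beside all 7 genes, 28 neighbours were read, 2 on each side, a set added after seeing the data. In SRG3 cKO against WT none passed the limma test, where 0.523% of all genes did, so nothing is read from that count. The Ccn1 neighbour Ddah1 differed there by -0.18 (SE 0.03, adjusted p 0.0676). In RORγt KO against WT Ccr7 and the Ccn2 neighbour Stx7 passed, the latter at 0.34 (adjusted p 0.00318).

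**Figure D4:**
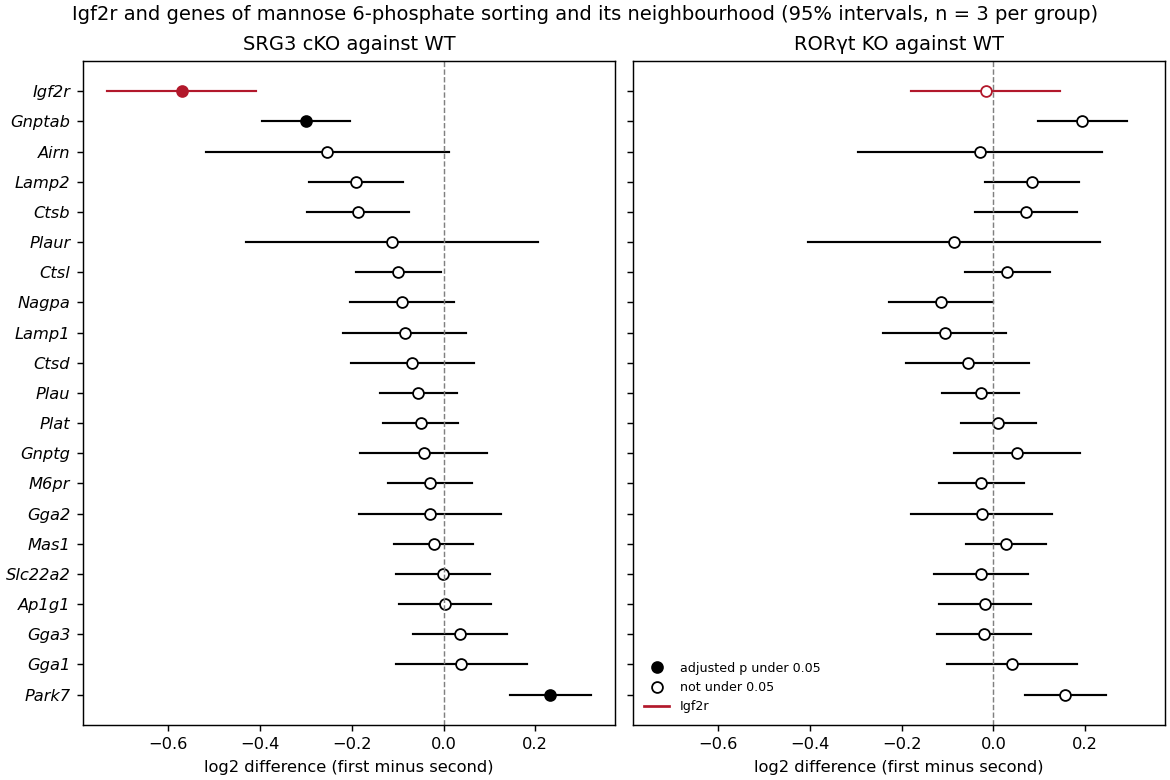
Log2 differences from WT, with 95% confidence intervals, of Igf2r (red) and of the 20 measured genes listed with it. Most of these belong to mannose 6-phosphate sorting or the imprinted neighbourhood. Filled points have an adjusted p under 0.05. Gnptab (-0.30) stands next to Igf2r (-0.57) in SRG3 cKO, and no gene is filled in RORγt KO. Park7, outside sorting and not among the nearest measured neighbours of Igf2r, is farthest to the right in SRG3 cKO.

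Genes of pathways known to act on CCN transcription, targets included, were read next. Of 19 measured Hippo regulators, YAP, TAZ and TEAD factors and their targets, none passed the limma test in any comparison. Of all genes 0.523%, 1.04% and 1.28% passed, so nothing is read from that count or from those of the other lists. An unadjusted p under 0.05 was reached by 5, 5 and 1 of the 19, and list medians were -0.01, -0.02 and 0.01. Yap1, the coactivator, differed from WT by 0.03 in SRG3 cKO, and Ankrd1, a target named alongside Ccn1, differed by -0.11 (adjusted p 0.548). Of 19 measured serum response factor and immediate early genes, Egr2 alone passed, and list medians were 0.02, -0.04 and -0.04. It fell by 0.29 (adjusted p 0.0436) in RORγt KO against WT and was lower there than in SRG3 cKO by -0.31 (adjusted p 0.0267). The Egr2 fall against WT lost its call without any array but SRG3 cKO 2 (0.0588 to 0.185), and the direct difference without SRG3 cKO 2, SRG3 cKO 3 or any RORγt KO array (0.0515 to 0.113). Srf itself differed by 0.00 in SRG3 cKO. Among 17 measured TGF-β response genes Ldlrad4, a feedback inhibitor of SMAD signalling, was the one that passed, and list medians were 0.01, 0.00 and -0.03. It read 7.33, 7.33 and 7.37 in WT, 6.87, 6.95 and 6.68 in SRG3 cKO and 7.71, 7.49 and 7.55 in RORγt KO. Like Ccn1 and Igf2r it was lowest in SRG3 cKO, where it fell by 0.51 (adjusted p 0.0242). That call was lost without SRG3 cKO 1, SRG3 cKO 3 or any WT array (0.0579 to 0.106). RORγt KO stood above SRG3 cKO by 0.75 (adjusted p 0.00121), whichever array was left out. Smad7, another feedback gene, differed by 0.00 and 0.01 from WT.

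Of 19 measured genes for CCN receptors and other matricellular and mesenchymal proteins, Itgav rose in SRG3 cKO against WT. None passed the limma test in RORγt KO against WT, where 6 had an unadjusted p under 0.05. List medians were -0.01, 0.01 and 0.01. Itgav encodes the integrin αv chain, part of the receptors that Ccn1 binds. It read 10.1, 10.0 and 10.0 in WT, 10.3, 10.4 and 10.4 in SRG3 cKO and 10.2, 10.2 and 10.2 in RORγt KO, so that SRG3 cKO stood highest where for Ccn1 it stood lowest. The rise was 0.32 (adjusted p 0.0216). It missed the threshold without WT 2, WT 3 or any SRG3 cKO array (0.0650 to 0.0993), and was 0.21 (adjusted p 0.145) when all Itgav probe sets were averaged. Itgb1, which pairs with several α chains, differed by -0.29 in SRG3 cKO (adjusted p 0.197). Between the mutants, Vim, the intermediate filament gene, was higher in RORγt KO by 0.48 (adjusted p 0.00919, lost without RORγt KO 1 at 0.0508), and Sdc4, a heparan sulfate carrier, by 0.41 (adjusted p 0.0457). The Sdc4 call was lost without WT 2, SRG3 cKO 2, SRG3 cKO 3 or any RORγt KO array (0.0837 to 0.169). Without the 3 arrays that stood apart, Gnptab passed between the mutants and no other called gene of the 7 gene lists passed, marker lists aside.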

How the data were processed

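Deposited log2 intensities of 41345 probe sets were used as the authors gave them. Background correction, normalization and summarisation are not given in the sources used here. The number of arrays limits precision. No sample column was left unused (0). Symbols came from the platform annotation, updated by gene ID for 23328 of the 23521 probe sets with 1 symbol. The 1814 with several and the 16010 with none were left out. The probe set with the highest mean stood for each of 22180 genes. A limma 3.58.1 fit (R 4.3.3) of all 9 arrays without a block was moderated with eBayes, with p-values adjusted per comparison, and was tested on simulated data. The 7 genes, the 7 gene lists (143 genes, 134 measured) and the 6 marker lists were chosen with earlier results of these data known. Named from a list were genes that passed and up to 3 by role, and for each of the 7 genes the 3 most correlated. The neighbouring genes and the set without the arrays standing apart were chosen after seeing the data. Deviations from group means of arrays with the same number correlated at 0.287, 0.186 and 0.116 for SRG3 cKO and WT, taken as pairs. They correlated at 0.215, -0.00527 and 0.186 for RORγt KO and WT and at 0.223, -0.00544 and 0.137 for both mutants, which were not. These correlations are weak and the labels state no pairing, so the block served only as an alternative to the main fit. A planned protein comparison was not run, as proteins were not used here. Alternatives changed the normalization, centring, dim probe set filter, probe set rule, variance model, weights, arrays and block.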

Additional observations from a re-analysis of the deposited data

How the results depend on the processing

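There were 3 arrays per genotype, with no statement on separate mice. In SRG3 cKO against WT 116 genes passed. This became 196 with probe sets above the median level, 13 with the 6 arrays of those groups, 195 with the replicate block, 1 without the 3 arrays that stood apart, and 18 to 87 with 1 array left out. RORγt KO against WT gave 230 genes, and 348, 43, 374 and 464 under the same 4 settings and 45 to 322 with 1 array left out. RORγt KO against SRG3 cKO gave 283, then 142 with 6 arrays, 39 without the 3 arrays that stood apart, and 138 to 261 with 1 left out. Of the 7 genes, 3, 2 and 2 passed; 1 and 1 passed against WT with 6 arrays, 0 in SRG3 cKO against WT and 0 between the mutants without the 3 arrays that stood apart, and 2 to 3, 1 to 2 and 2 to 3 with 1 array left out. Signs turned for 5 differences, none of them called. Igfbp3 in SRG3 cKO against WT ran from -0.0691 to 0.0547 with 1 array left out and was 0.0477 without the 3 arrays that stood apart, and Ccn2 ran from -0.0723 to 0.000155. In RORγt KO against WT Igf2r ran from -0.0646 to 0.0754, Igf1r from -0.0383 to 0.0612 and Airn from -0.10 to 0.10. The replicate block changed no call of the 7 genes against WT, and added Igfbp4 between the mutants (0.0280), which were not taken as pairs. Fits of fewer arrays have fewer samples by construction, and the cause of the other moves was not tested.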
